A study of Mus musculus with 8 samples.

Results

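Bipolar cell genes were followed in mouse retina after MPTP or saline. They are 10 genes chosen by name as markers of ON and OFF bipolar cells (Grm6, Trpm1, Nyx, Gpr179, Prkca, Pcp2, Cabp5, Isl1, Vsx1 and Grik1), out of 19938 genes with a value on the arrays. All 10 were found. Each gene is read through the probe set, a group of probes for 1 transcript, that has the highest mean signal of those naming the gene alone, and Nyx has a further probe set that is given beside it.

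Male C57BL/6 mice, aged 6 weeks when the study began and with no genetic alteration named in the labels, were injected with saline or with MPTP. MPTP is a toxin that, once metabolised, is taken up by the dopamine transporter and blocks mitochondrial complex I; its dose and route were not stated in the sources used here. The 4 groups of 6 mice are each treatment at 1 week (7 days) and at 4 weeks (28 days). Each group has 2 arrays with RNA pooled from 4 retinas each, 8 of its 12 retinas, and separate mice for the 2 pools are not stated, so p-values measure only the spread between these arrays. Whole retina was measured, so fewer bipolar cells and less RNA per bipolar cell cannot be told apart.

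Bipolar cells are the interneurons that pass the signal of photoreceptors to amacrine and ganglion cells. Photoreceptors release glutamate in the dark. ON bipolar cells, which include all rod bipolar cells, sense it with the metabotropic receptor mGluR6, which acts through the G protein Go to close the cation channel TRPM1, so these cells depolarise in light. OFF bipolar cells use ionotropic glutamate receptors and depolarise in the dark. Dopamine from amacrine cells is a known modulator of retinal circuits during light adaptation.

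The values are log2 signals after RMA, a procedure that corrects background, normalizes between arrays and summarises the probes of a probe set; a difference of 1 is a doubling. None of the 10 genes passed the test in any comparison (limma, Benjamini-Hochberg adjusted p under 0.05 over all genes), and neither did any of the 19938 genes, a share of 0.0%. At 1 week, 6 of the 10 were above 0 and 4 below (MPTP minus saline), with a median of 0.04, beside 46.9% above 0 and a median of -0.0081 over all genes. At 4 weeks, 4 were above and 6 below, with a median of -0.02, beside 51.8% and 0.0043 over all genes. These counts move easily: without the 2 arrays that stand apart, described next, 4 were above and 6 below at 1 week, and with the other Nyx probe set 3 were above and 7 below at 4 weeks. The 95% intervals of the 10 genes together ran from 0.743-fold to 1.32-fold at 1 week, and from 0.782-fold to 1.31-fold at 4 weeks. A change of these sizes in some gene could thus go undetected here.

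The arrays themselves were uneven. Array 2 of saline 1 week and array 1 of MPTP 1 week stood apart on the first principal component over all genes, which held 38.3% of the variance, with scores of 15.7 and 19.1 against -9.39 to -0.391 in the other 6. The interquartile range of signal over all genes was 1.904 and 1.916 log2 units on these, and 1.655 to 1.74 on the others. Rod genes averaged 11.25 to 11.38 on all arrays, where the median of all genes was 6.95 to 7.02. Lens genes were most uneven, with a mean over 12 genes of 8.22 on array 2 of MPTP 1 week and 7.17 to 7.84 on the others. RMA values have no true zero, so no marker can be said to be at 0.

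**Figure D1:**
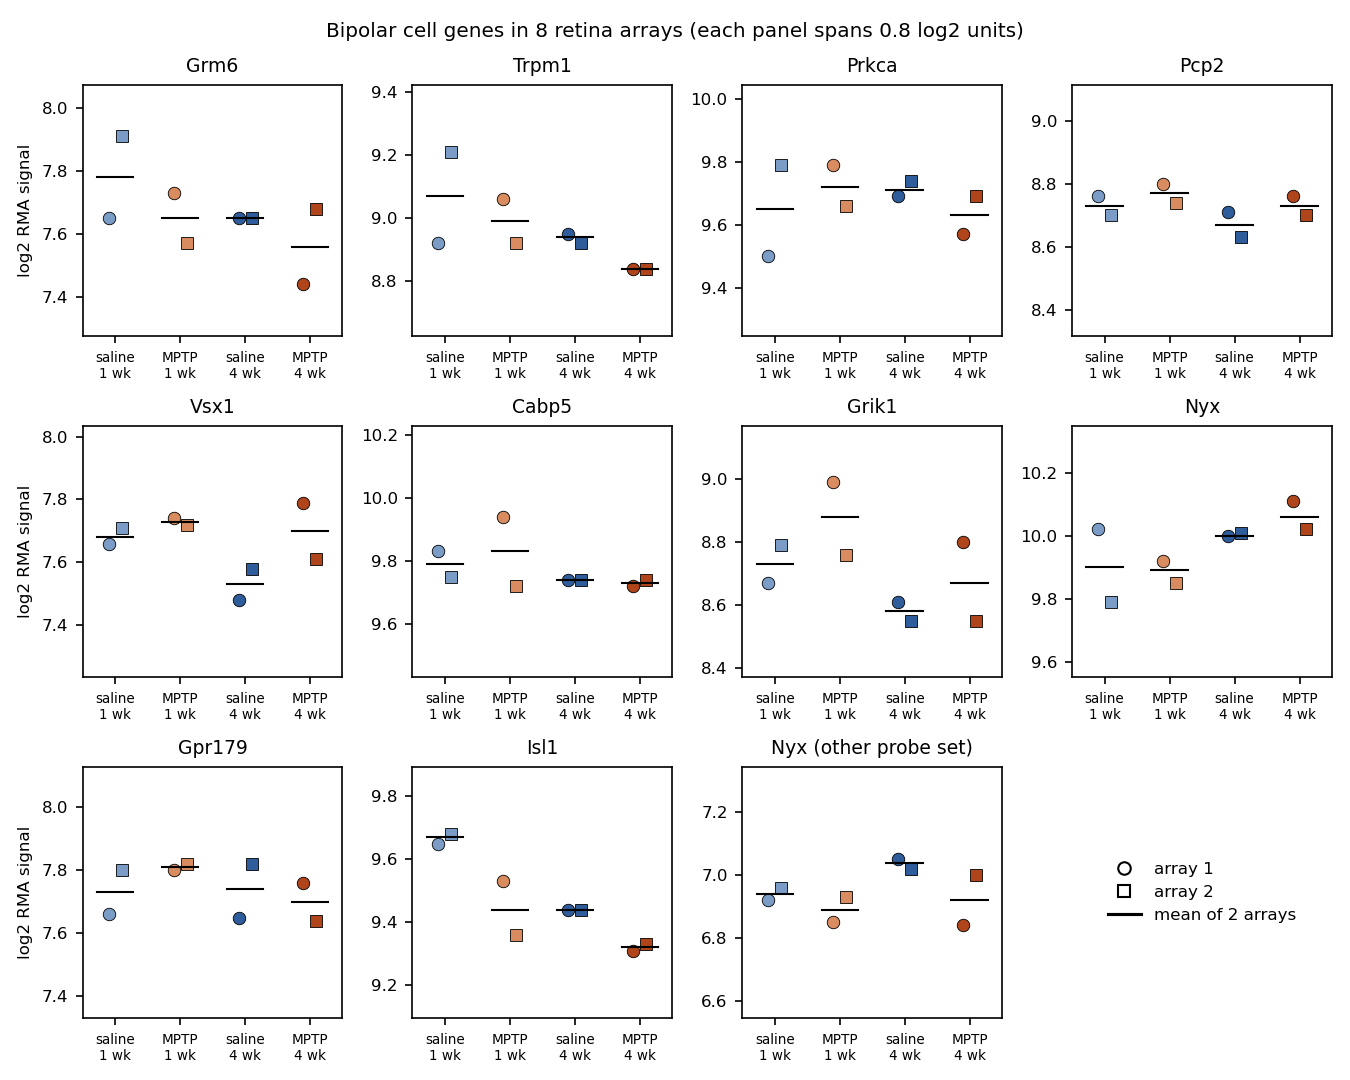
Log2 RMA signal of the 10 bipolar cell genes, and of the other Nyx probe set, on each of the 8 arrays by group. Circles and squares are arrays 1 and 2, lines are means of 2 arrays, and each panel spans the same height; Isl1 lies lower in MPTP than in saline at both times and Vsx1 higher.

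The first genes belong to the mGluR6 cascade. Grm6, the gene of mGluR6 itself, measured 7.65 and 7.91 in saline and 7.73 and 7.57 in MPTP at 1 week. Its values at 4 weeks were 7.65 and 7.65 in saline and 7.44 and 7.68 in MPTP. The groups overlapped at both times, and array 2 of saline 1 week was the highest of all 8. The difference was -0.13 ± 0.12 at 1 week (SE of the limma fit, n = 2 arrays a group, 95% interval -0.40 to 0.14) and -0.09 ± 0.12 at 4 weeks (-0.35 to 0.18).

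Trpm1, the channel that mGluR6 closes, measured 8.92 and 9.21 in saline and 9.06 and 8.92 in MPTP at 1 week. The saline arrays at 4 weeks gave 8.95 and 8.92 and the MPTP arrays 8.84 and 8.84. Both MPTP arrays were below both saline arrays at 4 weeks, while the groups overlapped at 1 week. The difference was -0.08 ± 0.11 at 1 week (-0.32 to 0.17) and -0.10 ± 0.11 at 4 weeks (-0.34 to 0.15). Without the array 2 of saline 1 week that stands apart, the value at 1 week was 0.07. Without both arrays that stand apart it was -0.0056, so its sign depends on which arrays are kept.

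Gpr179, an orphan receptor that holds the RGS proteins of the cascade at the dendritic tips, measured 7.66 and 7.80 in saline and 7.80 and 7.82 in MPTP at 1 week. At 4 weeks the values were 7.65 and 7.82 in saline and 7.76 and 7.64 in MPTP. The groups overlapped at both times. Its differences were 0.08 ± 0.10 (-0.14 to 0.30) and -0.04 ± 0.10 (-0.26 to 0.18).

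Nyx encodes nyctalopin, a leucine-rich repeat protein needed for TRPM1 to reach the dendritic tips, and its 2 probe sets did not give the same picture. The brighter measured 10.02 and 9.79 in saline and 9.92 and 9.85 in MPTP at 1 week. The later groups gave 10.01 or just under it on both saline arrays, and 10.11 and 10.02 in MPTP. Here both MPTP arrays were above both saline arrays at 4 weeks, by 0.06 ± 0.10 (-0.16 to 0.28), and the groups overlapped at 1 week, with a difference of -0.02 ± 0.10 (-0.24 to 0.21).

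The other Nyx probe set measured 6.92 and 6.96 in saline and 6.85 and 6.93 in MPTP at 1 week. Its values at 4 weeks were 7.05 and 7.02 in saline and 6.84 and 7.00 in MPTP. In it both MPTP arrays were below both saline arrays at 4 weeks, the opposite order, by -0.12 ± 0.09 (-0.32 to 0.09). Nyx lies on the X chromosome. In the order of probe set numbers, 19 of the 20 named neighbours of this probe set are genes on X, but all 20 neighbours of the brighter one are on chromosome 9, and the chosen probe sets of the other 9 genes have 17 to 20 of 20 neighbours on their own chromosome. Which RNA the brighter probe set measures was not tested, and no direction is given for Nyx.

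The next genes mark rod bipolar cells or are shared by rod and cone bipolar cells. Prkca, the protein kinase C alpha that is the usual marker of rod bipolar cells, measured 9.50 and 9.79 in saline and 9.79 and 9.66 in MPTP at 1 week. The saline arrays at 4 weeks gave 9.69 and 9.74 and the MPTP arrays 9.57 and 9.69. The groups overlapped at both times, and the lowest array of all 8 was array 1 of saline 1 week. Its differences were 0.08 ± 0.11 (-0.17 to 0.33) and -0.08 ± 0.11 (-0.33 to 0.17).

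Pcp2, a protein that binds the alpha subunit of Go and is found in rod bipolar and some cone bipolar cells, measured 8.76 and 8.70 in saline and 8.80 and 8.74 in MPTP at 1 week. At 4 weeks the values were 8.71 and 8.63 in saline and 8.76 and 8.70 in MPTP. It had the narrowest range of the 10 genes, 0.17 from lowest to highest array, and the groups overlapped at both times. Its differences were 0.04 ± 0.09 (-0.15 to 0.23) and 0.06 ± 0.09 (-0.13 to 0.26).

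Cabp5, a calcium-binding protein of rod bipolar and several cone bipolar types, measured 9.83 and 9.75 in saline and 9.94 and 9.72 in MPTP at 1 week. In the later groups saline gave 9.74 and 9.74 and MPTP 9.72 and 9.74. The arrays at 4 weeks lay within 0.02 of each other, and those at 1 week overlapped. Its differences were 0.04 ± 0.10 (-0.17 to 0.26) and -0.0061 ± 0.10 (-0.22 to 0.21).

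Isl1 encodes a LIM homeodomain transcription factor of ON bipolar cells. In the values as deposited, it was the only one of the 10 with an unadjusted p under 0.05 in an MPTP comparison. It measured 9.65 and 9.68 in saline and 9.53 and 9.36 in MPTP at 1 week. Its values at 4 weeks were 9.44 and 9.44 in saline and 9.31 and 9.33 in MPTP. Both MPTP arrays were below both saline arrays at each time. The Isl1 arrays at 4 weeks were also below those at 1 week within each treatment, so that the saline arrays at 4 weeks lay between the MPTP arrays at 1 week. In MPTP this rested on the scaling, since the value for time was -0.12 as deposited, 0.0017 after quantile and -0.01 after cyclic loess normalization.

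At 1 week the Isl1 difference was -0.23 ± 0.09 (-0.43 to -0.02), with a limma p of 0.0321 and a Benjamini-Hochberg adjusted p of 1.0. At 4 weeks it was -0.12 ± 0.09 (-0.32 to 0.08), with a limma p of 0.207. Over both times, with time as a term in the fit and 4 arrays a side, it was -0.17 ± 0.06 (-0.31 to -0.04), which is 0.886-fold (0.807 to 0.973). The limma p was 0.0162 and the adjusted p 0.973, so Isl1 did not pass the threshold. Over both times its groups overlapped. Of all genes, 4.22% had an unadjusted p under 0.05 at 1 week, 1.91% at 4 weeks and 4.76% over both times, and 3.41% were lower in MPTP without overlap at both times. Without the 2 arrays that stand apart, 1 array a group is left at 1 week, and the lone arrays are assumed to vary like the other groups. The Isl1 value at 1 week was then -0.30 ± 0.10 (adjusted p 0.531 by limma), and over both times it was -0.18 ± 0.07 (adjusted p 0.816 by limma).

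Isl1 is also made by ganglion cells and cholinergic amacrine cells. The mean of the 11 ganglion cell genes was 8.27 to 8.34 in MPTP 1 week and 8.30 to 8.39 in saline 1 week, and 8.28 to 8.36 in MPTP 4 weeks and 8.32 to 8.35 in saline 4 weeks. The mean of the 12 amacrine genes was 7.97 to 8.04 over all 8 arrays. Of the genes of cholinergic amacrine cells, Chat, which makes acetylcholine, stood at 0.03 ± 0.14 at 1 week and 0.07 ± 0.14 at 4 weeks. The vesicular transporter Slc18a3 stood at 0.13 ± 0.16 and 0.11 ± 0.16, and the choline transporter Slc5a7 at -0.11 ± 0.09 and 0.0044 ± 0.09. Their mean signals lay only at percentiles 31.8 (Chat), 52.0 (Slc18a3) and 52.1 (Slc5a7) of all genes. A change in cholinergic cells could thus be missed in them. Of the 11 ganglion genes 6 were below 0 at each time. Nrn1, or neuritin, was lowest at both, with -0.38 ± 0.11 (limma p 0.00615, adjusted p 1.0) and -0.21 ± 0.11. Slc17a6, the glutamate transporter of ganglion cells, stood at -0.28 ± 0.12 (limma p 0.0462, adjusted p 1.0) and -0.02 ± 0.12. The highest were Nefm, a neurofilament, at 1 week with 0.16 ± 0.10 and Pou4f1, a transcription factor, at 4 weeks with 0.17 ± 0.11. The cholinergic genes and Slc17a6 were named after their values were seen. Their part in the Isl1 values was not tested.

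The last 2 genes belong to cone bipolar cells. Vsx1, a homeobox factor of cone bipolar cells that OFF types need for their late differentiation, measured 7.66 and 7.71 in saline and 7.74 and 7.72 in MPTP at 1 week. The saline arrays at 4 weeks gave 7.48 and 7.58 and the MPTP arrays 7.79 and 7.61. Both MPTP arrays were above both saline arrays at each time, but narrowly. The nearest MPTP and saline arrays were 7.72 and 7.71 at 1 week, and 7.61 and 7.58 at 4 weeks. The difference of the means at 1 week was 0.05 ± 0.10 (-0.17 to 0.26). At 4 weeks the difference was 0.17 ± 0.10 (-0.04 to 0.38, limma p 0.101, adjusted p 1.0), and over both times it was 0.11 ± 0.07 (-0.04 to 0.25, adjusted p 0.973 by limma). After quantile normalization the Vsx1 difference at 4 weeks was 0.20 ± 0.09 (limma p 0.0489), which did not pass the adjusted threshold. Of all genes, 2.65% were higher in MPTP without overlap at both times.

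Grik1 encodes GluK1, a kainate receptor subunit through which OFF bipolar cells sense glutamate. It measured 8.67 and 8.79 in saline and 8.99 and 8.76 in MPTP at 1 week. At 4 weeks the values were 8.61 and 8.55 in saline and 8.80 and 8.55 in MPTP. In each MPTP group array 1 was above both saline arrays and array 2 was not, so the groups overlapped at both times. The differences were 0.15 ± 0.12 (-0.11 to 0.41) and 0.09 ± 0.12 (-0.17 to 0.35), and 0.12 ± 0.08 over both times (-0.05 to 0.29, adjusted p 0.973 by limma).

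**Figure D2:**
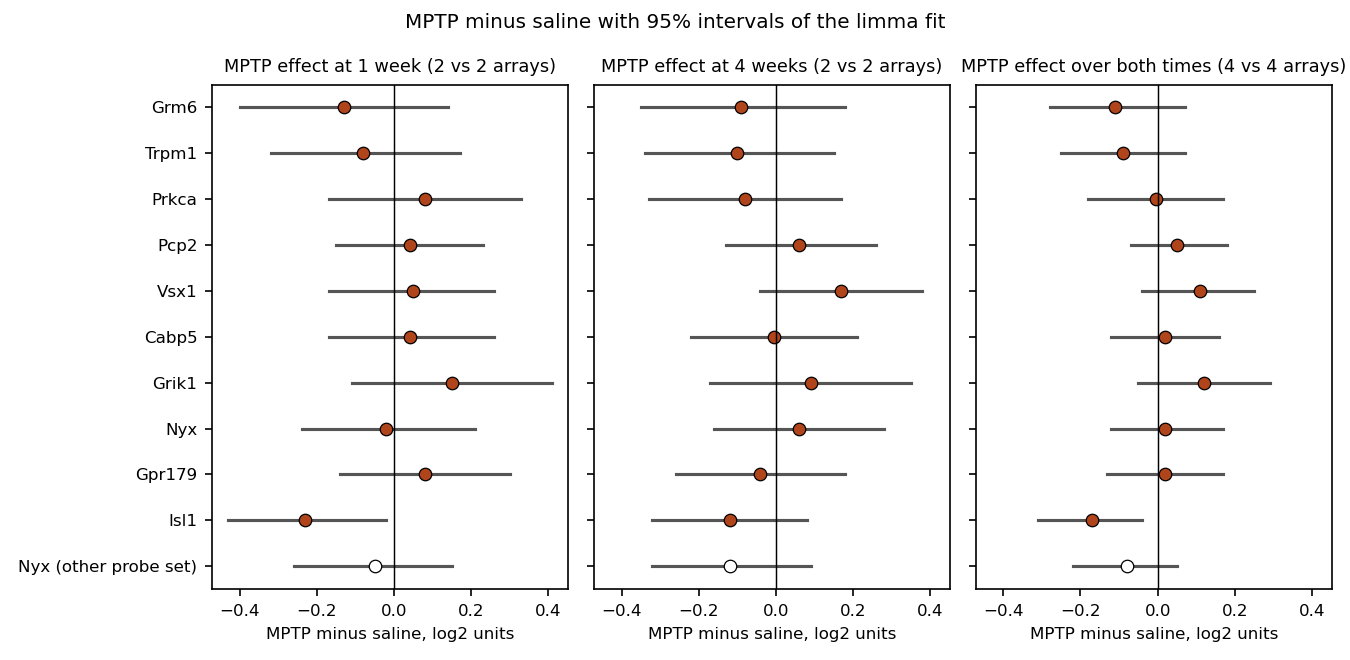
MPTP minus saline in log2 units with the 95% interval of the limma fit, for 1 week, 4 weeks and both times; open points are the other Nyx probe set. The Isl1 interval lies below 0 at 1 week and over both times, and all other intervals include 0.

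The share of genes whose groups did not overlap was set beside that of all genes. At 1 week, 2 of the 10 (Isl1 lower, Vsx1 higher), or 20.0%, had no overlap between MPTP and saline arrays, beside 26.3% of all genes. At 4 weeks there were 4 of 10 (Isl1 and Trpm1 lower, Vsx1 and the brighter Nyx probe set higher) beside 35.3% of all genes. Over both times no member had groups without overlap, beside 2.5% of all genes.

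The effects at the 2 times were also compared directly. When the MPTP effect at 1 week was taken from that at 4 weeks, 5 genes were above 0 and 5 below, with a median of 0.0027; after quantile or cyclic loess normalization the counts were 7 and 3. The furthest was Prkca at -0.16 ± 0.16 (-0.51 to 0.19, limma p 0.333, adjusted p 1.0), and Isl1 stood at 0.10 ± 0.13 (-0.18 to 0.39). No member had an unadjusted p under 0.05 in this comparison, beside 1.96% of all genes, so no difference between the times was detected for them.

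Time was compared within each treatment. In saline, 7 of the 10 genes were below 0 (4 weeks minus 1 week) with a median of -0.09, and the median of all genes was 0.0012. Isl1 was lowest at -0.22 ± 0.09 (-0.43 to -0.02, limma p 0.0339, adjusted p 1.0), where 2.13% of all genes had an unadjusted p under 0.05. Isl1, Vsx1, Grik1 and Cabp5, 4 of 10, were lower at 4 weeks without overlap. Of all genes, 15.1% were lower without overlap, and 27.7% had no overlap in either direction. In MPTP, 9 of the 10 were below 0 with a median of -0.10, beside a median of 0.01 over all genes. That count was lost under other scaling: after quantile or cyclic loess normalization 5 were above 0 and 5 below, with medians of -0.005 and -0.0027, and no direction with time in MPTP is given for the group. In saline 6 were below 0 under both. Of the cone genes, 10 of 11 were also below 0 in saline (median -0.12) and in MPTP (median -0.16). Rod genes were even in saline, with 5 of 10 below 0 (median -0.0012), and 10 of 10 were below 0 in MPTP (median -0.1). These lists were read as deposited only and not under other scaling. The 40 other bipolar genes described further on stood at 21 above and 19 below in saline, and 22 and 18 in MPTP. The part of photoreceptor genes in the members' values was not tested. Of the members in MPTP, Grik1 was lowest at -0.20 ± 0.12 (limma p 0.107, adjusted p 0.546) and the brighter Nyx probe set highest at 0.17 ± 0.10. Of the 10, 4 had no overlap (Trpm1, Gpr179 and Isl1 lower, the brighter Nyx probe set higher), beside 44.3% of all genes, and none had an unadjusted p under 0.05, beside 9.79%. These comparisons share their groups with the MPTP comparisons, and both groups at 1 week hold an array that stands apart.

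**Figure D3:**
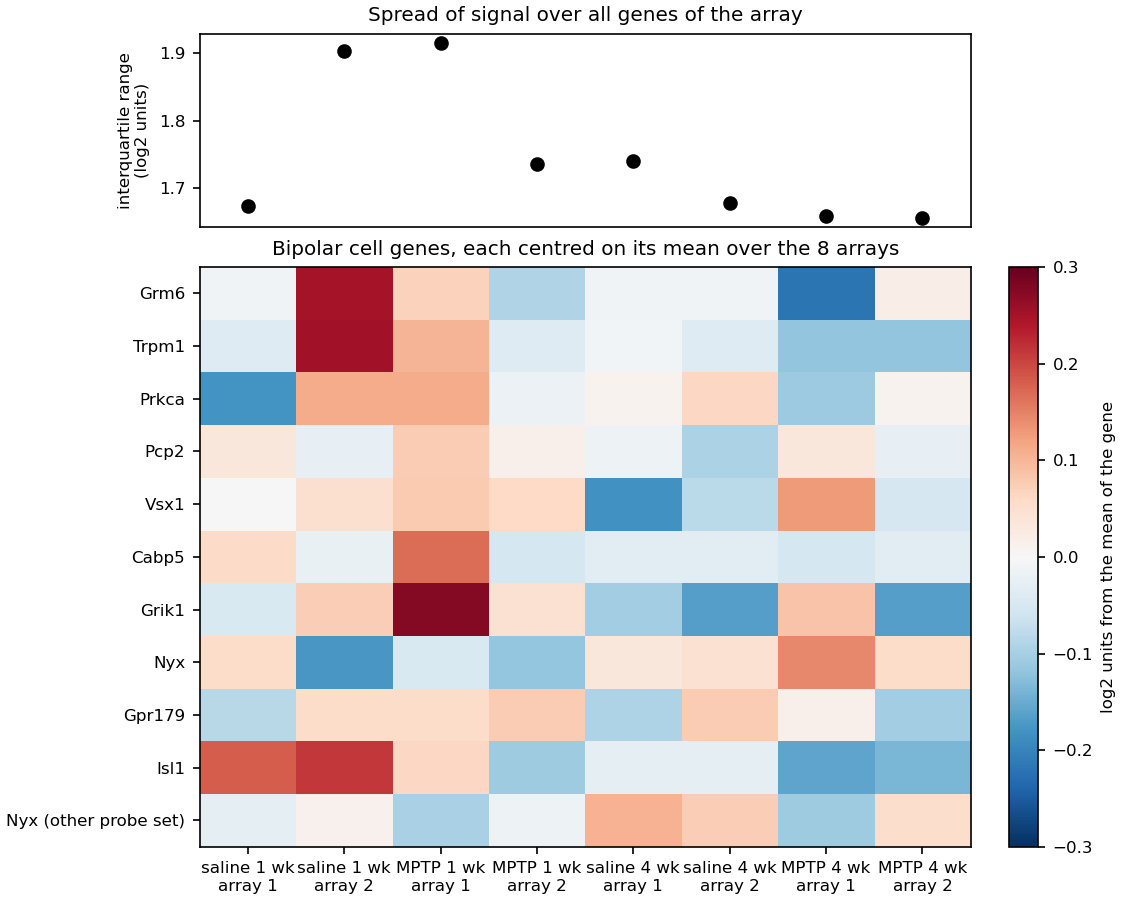
The upper panel gives the interquartile range of signal over all genes of each array, and the lower panel each gene's distance from its own mean over the 8 arrays in log2 units. Array 2 of saline 1 week and array 1 of MPTP 1 week have the widest ranges, and Grm6, Trpm1 and Prkca are higher there than on the other 6 arrays.

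The values of the members on the 2 arrays that stand apart were set beside those on the other 6. Trpm1 measured 9.21 and 9.06 on the 2 arrays that stand apart and 8.84 to 8.95 on the other 6. Grm6 measured 7.91 and 7.73 on these and 7.44 to 7.68 on the others, and Prkca 9.79 and 9.79 against 9.50 to 9.74. Among the 10 genes, these 3 had both of these arrays above all others. The share of all genes with this pattern was not counted. These arrays were picked because they stand apart over all genes, so no trait of these 3 genes is read from it. Grik1 was 0.24 higher on average on these arrays than on the others, Isl1 0.18 higher, and the brighter Nyx probe set lower by an average of -0.14. Since 1 of these arrays is saline and the other MPTP, each touches the comparison at 1 week from a different side. Their part in the values at 1 week was not tested beyond leaving them out.

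**Figure D4:**
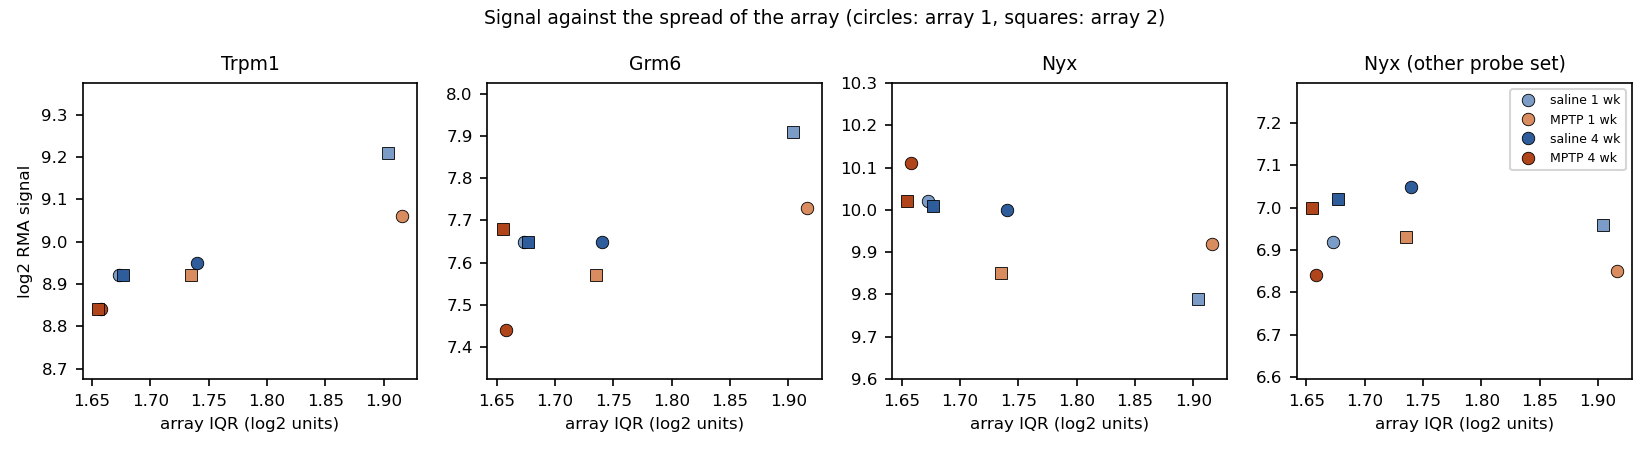
Log2 signal of Trpm1, Grm6 and both Nyx probe sets on each array against the interquartile range of that array in log2 units, coloured by group. Trpm1 is highest on the 2 arrays with ranges of 1.904 and 1.916, and the brighter Nyx probe set is lowest, at 9.79, on the first of them.

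The promoters of the 10 genes were read for 3 short motifs. Windows ran from 250 bases before to 50 after the start of each gene, from RefSeq on build GRCm38.p6, and 9 of the 10 genes had an entry; the build behind the array is unstated in the labels. GGATTA, a motif bound by OTX2 and CRX type homeodomains, was present on either strand for Trpm1, Cabp5 and Isl1, 3 of 9 genes, and in 8.14% of 27025 genes. TAATTA, a homeodomain core, was present for Pcp2 and in 6.12% of genes. CATATG, an E-box, was present for none of the 9 and in 4.48% of genes. The stretches with GGATTA are shown because OTX2 is measured beside these genes, written 5′ to 3′ along the gene, with the match in capitals (TAATCC is GGATTA read on the opposite strand). In order they are Isl1 at chr13:116309820-116309905 on the minus strand, Trpm1 at chr7:64153761-64153834 and Cabp5 at chr7:13397983-13398012 and chr7:13398102-13398131 on the plus strand.
Isl1: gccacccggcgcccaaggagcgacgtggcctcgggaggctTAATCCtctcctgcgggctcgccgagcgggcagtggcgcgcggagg
Trpm1: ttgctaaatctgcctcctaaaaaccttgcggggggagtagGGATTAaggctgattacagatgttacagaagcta
Cabp5, first match: gaggcctcacccTAATCCctctttcaaaat
Cabp5, second match: taggaagagctcTAATCCctccactgtcta
The matches begin 177 bases before the start of Isl1, 34 before that of Trpm1, and 160 and 41 before that of Cabp5. A match describes these letters and shows no binding.

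The partners of mGluR6 were read from a list of 8 genes, all measured. At 1 week 4 were above 0 and 4 below, with a median of -0.04, and at 4 weeks the counts were equal again, with a median of -0.03. None passed the threshold. Gng13, the gamma subunit of Go in ON bipolar cells, measured 8.65 and 8.58 in saline and 8.78 and 8.88 in MPTP at 1 week, and 8.48 and 8.32 in saline and 8.58 and 8.54 in MPTP at 4 weeks. Its MPTP arrays were above the saline arrays at each time, by 0.21 ± 0.09 and 0.16 ± 0.09, and by 0.19 ± 0.06 over both times (limma p 0.0128, adjusted p 0.973).

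Gnb3, the beta subunit that works with Gng13 in ON bipolar cells and is also a cone gene, measured 9.70 and 9.64 in saline and 9.46 and 9.22 in MPTP at 1 week. In the later groups saline gave 9.75 and 9.38 and MPTP 9.73 and 9.08. The groups overlapped only at 4 weeks, where the arrays of a group were far apart, and the differences were -0.33 ± 0.19 and -0.16 ± 0.19. Lrit3, a synaptic protein needed for TRPM1 at the dendritic tips, measured 8.14 and 8.44 in saline and 8.17 and 8.04 in MPTP at 1 week, and 8.22 and 8.21 in saline and 7.96 and 8.09 in MPTP at 4 weeks. Its difference at 4 weeks was -0.19 ± 0.11, with no overlap, and over both times it was -0.18 ± 0.08 (limma p 0.0325, adjusted p 0.973).

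Of 12 bipolar transcription factors listed, 9 had a value here. At 1 week, at 4 weeks and over both times 7 were below 0 and 2 above, with medians of -0.04, -0.08 and -0.08. Of all genes, 46.9%, 51.8% and 49.0% were above 0, with medians of -0.0081, 0.0043 and -0.0017. Some of the 9 are also in the other bipolar lists, and the members Isl1 and Vsx1 are not counted here. No shared direction is read from these counts. Otx2, a homeodomain factor of photoreceptors and bipolar cells, measured 10.35 and 10.48 in saline and 10.28 and 10.26 in MPTP at 1 week. Its values at 4 weeks were 10.35 and 10.48 in saline and 10.30 and 10.26 in MPTP. All 4 MPTP arrays were below all 4 saline arrays, which held for 1.49% of all genes, by -0.14 ± 0.06 (limma p 0.0416, adjusted p 0.973). At 1 week Prdm8, a factor of rod bipolar cells, was the highest of these at 0.19 ± 0.09, and at 4 weeks Irx5, an Iroquois homeobox factor, was the highest at 0.0086 ± 0.10 and Bhlhe23, a rod bipolar factor, the lowest at -0.16 ± 0.11.

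Other markers of bipolar types gave no common direction. Of 10 other rod bipolar genes 9 had a value, 6 above 0 at 1 week and 5 at 4 weeks, with medians of 0.05 and 0.02. Car8, a protein related to carbonic anhydrases, was highest at 4 weeks with 0.16 ± 0.09, and Vstm2b lowest at 1 week with -0.21 ± 0.10. Of 19 genes of cone bipolar types, 7 were above 0 at 1 week and 9 at 4 weeks, with medians of -0.03 and -0.0033. Scgn, the calcium sensor secretagogin, measured 8.54 and 8.65 in saline and 9.01 and 8.87 in MPTP at 1 week, and 8.66 and 8.55 in saline and 8.77 and 8.65 in MPTP at 4 weeks. Its difference at 1 week, 0.34 ± 0.10, had a limma p of 0.00643 and an adjusted p of 1.0; at 4 weeks it was 0.11 ± 0.10, with groups that overlapped. In this list Nnat, the membrane protein neuronatin, was lowest at 1 week with -0.16 ± 0.09, Cdh9, a cadherin, highest at 4 weeks with 0.28 ± 0.14, and Neto1, an auxiliary subunit of kainate receptors, lowest at 4 weeks with -0.12 ± 0.11.

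The 4 lists hold 40 different genes beside the 10 members. At 1 week 17 were above 0 and 23 below, and at 4 weeks 20 and 20, with medians of -0.03 and -0.0016. An unadjusted p under 0.05 was found for 3 at 1 week (7.5%, beside 4.22% of all genes), for 0 at 4 weeks and for 6 over both times (15.0%, beside 4.76%), and 0 passed the adjusted threshold. All 4 MPTP arrays were on 1 side of all 4 saline arrays for 3 of the 40 (7.5%, beside 2.5% of all genes), which were Car8 higher and Otx2 and Rgs11 lower. Rgs11, which speeds the switching off of Go in ON bipolar cells, was named after its values were seen; it stood at -0.17 ± 0.06 over both times (limma p 0.0216, adjusted p 0.973).

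**Figure D5:**
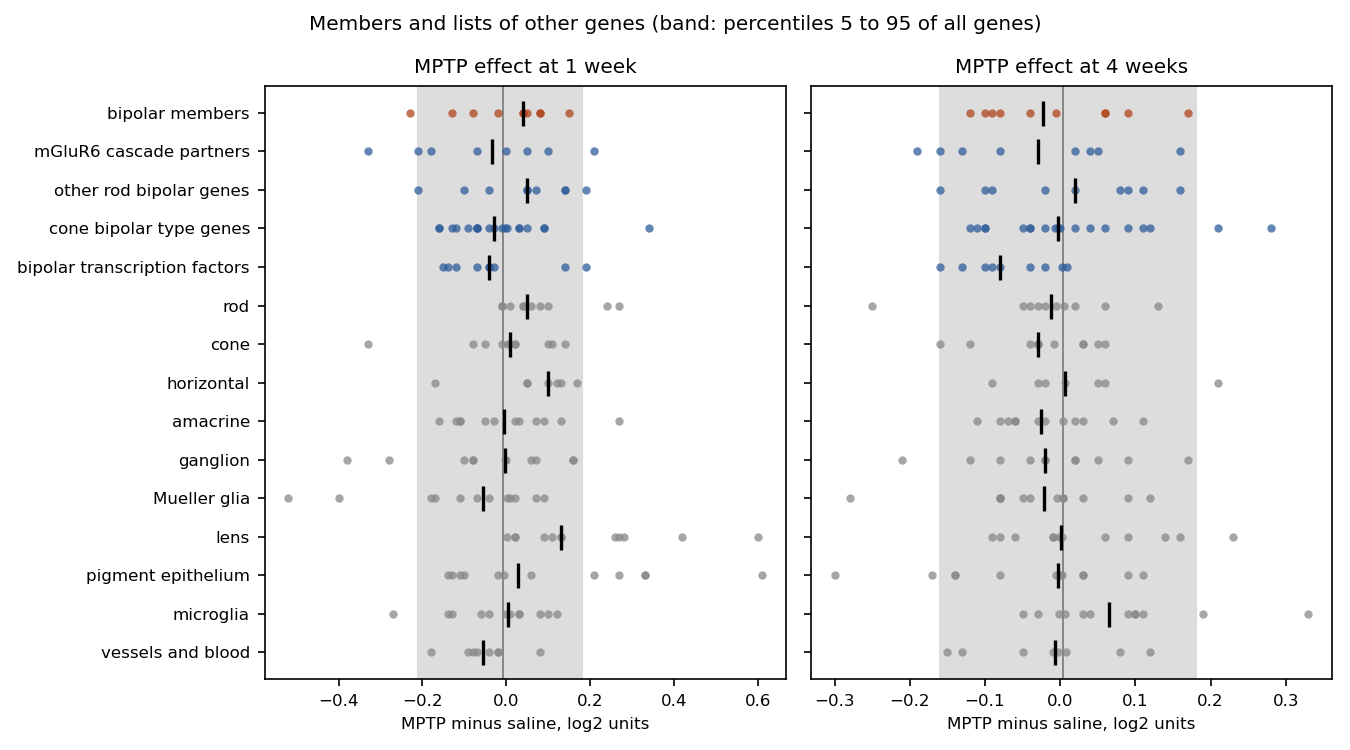
MPTP minus saline in log2 units at 1 week and at 4 weeks for each gene of the bipolar members and of 14 other lists; ticks are medians, the grey line is the median and the band percentiles 5 to 95 of all genes. The members lie within the band except Isl1 at 1 week, and at 1 week the widest spread is in pigment epithelium genes.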

How the data were processed

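Total RNA of pooled retinas (100 ng per array) was amplified and biotin-labelled, per the labels' protocols. The deposited values are log2 signals that the authors made by RMA in Affymetrix Expression Console (per the submitters' processing notes). Settings, scan batches and the array's build were not stated in the sources used here. Of 28944 probe sets, 21789 name 1 gene, 1621 several and 5534 none. For the 999 genes with more than 1, the probe set with the highest mean was kept, which left 19938 genes with no filter on dim ones. All 8 columns matched a sample title, and no column was left without one.

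The limma package 3.58.1 under R 4.3.3 gave the differences (two-sided, moderated by eBayes) over all 8 arrays, either with a mean per group (4 residual degrees of freedom) or with time and treatment as additive terms (5). Benjamini-Hochberg adjustment ran over all genes, with a threshold of 0.05. The number of arrays limits the precision. Simulated data with known differences were used to test the code. Figures used Python 3.11.15 and matplotlib 3.10.9.

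Members and lists were chosen with earlier results of these data known. All 10 members are named, with the genes of highest and lowest difference of each other bipolar list at each time, and the exceptions are stated. The alternatives were quantile and cyclic loess normalization, median centring, a filter at percentile 50 of mean signal, averaging over probe sets of a gene, all probe sets, trend and robust settings, a fit of the compared groups alone, a block for array number, omission of each array, and omission of both arrays that stand apart. Chosen after seeing the data were the other Nyx probe set and a crossed block.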

Additional observations from a re-analysis of the deposited data

Results flagged for a closer look

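Within the 4 saline or the 4 MPTP arrays, 5 of 22 sets of values had 1 array far from the rest by Dixon's criterion. Each set mixes both times. Chance flags about 1 in 20 independent sets, but these sets share the same arrays, so the 2 rates cannot be compared. Array 2 of saline 1 week gave the highest saline value of Grm6, 7.91, the highest of Trpm1, 9.21, and the lowest of the brighter Nyx probe set, 9.79. Array 1 of MPTP 1 week gave the highest MPTP value of Cabp5, 9.94. These are the arrays that stand apart over all genes. The fifth was Cabp5 on array 1 of saline 1 week, at 9.83.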

How the results depend on the processing

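Across 1146 values of the 10 members under alternatives, none passed the threshold. Of these values 1073 had the same direction and 73 did not, and the cause was not tested. Many of the 1073 were fixed in advance. The filter, all probe sets, trend and robust settings, the fit of compared groups alone and the blocks leave each estimate as it is. So does leaving out an array of a group that a comparison does not use. Isl1 and Vsx1 kept their direction in all 57 values each of the 3 MPTP comparisons, with such fixed values among them. Isl1 lay between -0.31 and -0.14 at 1 week, -0.14 and -0.10 at 4 weeks, and -0.20 and -0.13 over both times. The reversals, over all comparisons and members, were these. Quantile normalization gave, for the difference of the effects, 0.03 (Trpm1) and 0.00086 (Grik1), for time in saline 0.008 (Cabp5), and for time in MPTP 0.0012 (Prkca), 0.07 (Pcp2), 0.03 (Vsx1) and 0.0017 (Isl1). Cyclic loess gave 0.0085 for Cabp5 at 4 weeks, 0.03 (Trpm1) and 0.0049 (Cabp5) for the difference, 0.0021 (Cabp5) for time in saline, and 0.01 (Prkca), 0.07 (Pcp2), 0.0095 (Vsx1) and 0.007 (Cabp5) for time in MPTP. Median centring gave -0.01 for Gpr179 with time in saline. The mean of the Nyx probe sets gave -0.03 at 4 weeks and -0.03 over both times, and the other Nyx probe set, chosen after seeing the data, -0.12 at 4 weeks, -0.06 for the difference and -0.08 over both times. Without both arrays that stand apart, values were -0.02 (Pcp2) and -0.11 (Cabp5) at 1 week, -0.04 (Cabp5) and -0.02 (Nyx) over both times, -0.0051 (Grm6) and 0.10 (Cabp5) for the difference, 0.01 (Trpm1) and -0.01 (Nyx) for time in saline, and 0.01 (Cabp5) for time in MPTP, where 1 gene of all passed the threshold (Rny1, a small RNA gene, -1.69 ± 0.12, limma adjusted p 0.0374, named after its value was seen). MPTP 1 week then has 1 array, assumed to vary like the other groups, so this is no replicated call.

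Leaving out each array in turn gave these ranges where a sign turned. At 1 week they were -0.07 to 0.15 (Cabp5), -0.13 to 0.10 (Nyx), -0.07 to 0.22 (Prkca) and -0.22 to 0.07 (Trpm1). At 4 weeks they were -0.02 to 0.0031 (Cabp5), -0.12 to 0.04 (Gpr179), -0.03 to 0.22 (Grik1) and -0.21 to 0.03 (Grm6). Over both times they were -0.03 to 0.06 (Cabp5), -0.02 to 0.06 (Gpr179), -0.02 to 0.07 (Nyx) and -0.08 to 0.04 (Prkca). For the difference of the effects they were -0.16 to 0.06 (Cabp5), -0.18 to 0.07 (Grik1), -0.09 to 0.17 (Grm6), -0.04 to 0.19 (Nyx), -0.01 to 0.06 (Pcp2) and -0.16 to 0.12 (Trpm1). With time in MPTP they were -0.21 to 0.01 (Cabp5), -0.21 to 0.03 (Grm6) and -0.12 to 0.06 (Vsx1), and in saline -0.08 to 0.08 (Gpr179), -0.01 to 0.21 (Nyx), -0.08 to 0.21 (Prkca) and -0.27 to 0.01 (Trpm1). Genes past the threshold numbered 0 to 1 with time in MPTP, the 1 being Rny1 without array 1 of MPTP 1 week, again with a lone array in that group, and 0 elsewhere.

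Array numbers did not pair the samples: deviations from group means correlated at -0.383 to 0.207 between groups. With the number as a block, 0 genes passed the threshold, as without it. Isl1 over both times stayed at -0.17, which was fixed in advance, since each group holds an array of each number. A block with the numbers of MPTP 1 week exchanged also gave 0 genes. At an unadjusted p under 0.05 the main fit had 842 genes at 1 week and 381 at 4 weeks, the block 713 and 304, and the exchanged block 947 and 453.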

Other observations

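Genes above the median signal were ranked by likeness to the mean of the 10 members, passing over names of predicted genes and clones. Those most like it over the 8 arrays were Gtpbp8, Dcaf17, Zfp369, Kcnh5 and Dpm2. Their Pearson r was 0.984, 0.979, 0.977, 0.971 and 0.966. Over the 6 arrays that do not stand apart, r was 0.969, 0.872, 0.744, 0.726 and 0.787 in the same order. The mean of the 10 members itself had an r of 0.91 with the interquartile range of the array over the 8 arrays. The arrays share their normalization and the 2 that stand apart, so these values are descriptions. Among the 45 pairs of members, Grm6 and Trpm1 had the highest r over 8 arrays, 0.85, and 0.39 over the 6 others. Cabp5 and Isl1 went from 0.45 over 8 arrays to 0.92 over the 6 others, and Grm6 and Grik1 from 0.12 to -0.87.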
